A study of Mus musculus with 12 samples.

Results

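The mitochondrial ribosomal protein genes were taken as the mouse genes whose symbol in the array annotation starts with Mrpl or Mrps followed by a number. A probe set is a group of array oligonucleotides read as 1 value, and only probe sets naming 1 gene were used, with the probe set of the highest mean over the 12 arrays standing for its gene. This gave 76 genes, 47 Mrpl and 29 Mrps, among 9293 genes tested. All 76 lay above a log2 value of 4 on all 12 arrays, so no member was lost to the filter on dim probe sets. Mrpl30 and Mrpl53 were named only together with another gene and were not analysed here.

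The study measured splenic B cells sorted on B220, a surface marker of the B lineage, with Affymetrix arrays. The authors' values are log2 expression after GCRMA, a processing method whose background correction uses probe sequence. The control cells came from Foxp1wt/flox mice, in which a floxed Foxp1 allele is paired with an unmodified one, and the test cells from Foxp1flox/del mice, in which it is paired with a deleted one, all on a mixed 129/Sv-C57BL/6 background. Cells of each genotype were kept for 4 hours without addition or with IgM, as the labels name the stimulus, which gave 4 groups of 3 arrays. The labels do not give the age of the mice, what removes the floxed allele, or whether the 3 arrays of a group came from separate animals, so p-values measure the spread between these samples, which may be technical.

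Mitochondrial ribosomes translate the few proteins encoded in mitochondrial DNA, all of them subunits of the respiratory chain and ATP synthase. Their RNA is made inside the organelle, whereas every one of their proteins is encoded in the nucleus, translated in the cytosol and imported. The small subunit (Mrps) decodes the mRNA and the large subunit (Mrpl) joins the amino acids. Part of the proteins descend from the bacterial ribosome and the others were added during the evolution of mitochondria. B cells stimulated through their receptor enlarge and raise their respiration before they divide.

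The 8 measured genes of a 9-gene B cell list had mean log2 levels of 11.56 to 11.76 on the arrays without IgM and 10.62 to 10.96 with it. The 8 measured genes of a 9-gene neutrophil list reached 4.02 to 7.35 and 3.74 to 6.54 in wt/flox cells without and with IgM, against 5.99 to 10.57 and 4.34 to 9.76 in flox/del cells. The measured 2 of 7 erythroid genes averaged 4.59 to 5.21 in wt/flox and 5.37 to 10.03 in flox/del cells, and 5 of 10 macrophage genes 4.45 to 5.66 and 5.28 to 7.49, over both conditions. The part of these other cells in the genotype differences given below was not tested, and in bulk samples fewer cells of a type and less RNA per cell cannot be told apart. None of 8 Foxp1 probe sets separated the arrays labelled flox/del from those labelled wt/flox, without or with IgM. The sources used here do not place these probe sets relative to the deleted stretch, so they check nothing about the labels.

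The third array of flox/del cells with IgM stood apart from the other 11. The median log2 level of the 76 genes was 7.85 on that array and 9.68 to 10.61 on the others. Against the mean of its 2 group mates the members lay lower by a median of -2.52, from -3.66 for Mrps6 to 0.13 for Mrpl50, with 75 of 76 below 0. Over all tested genes this median was 0.14, with 45.9% below 0, and cytosolic ribosomal proteins had a median of -1.22. The array held the lowest of the 12 values for 73 members, the exceptions being Mrpl50, Mrps2 and Mrps27. Added poly-A control RNAs averaged 7.13 on it and 8.20 to 10.82 on the others. These controls fell from replicate 1 to 3 in every group, as did the member median. In wt/flox cells with IgM they averaged 10.21, 9.14 and 8.20, with member medians of 10.61, 10.23 and 9.89. Counts of members called in each comparison are given below with and without that array. Single genes and lists are given in selected models. Where a list goes from 12 arrays to 11 with the replicate block, the array and the block change together.

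**Figure D1:**
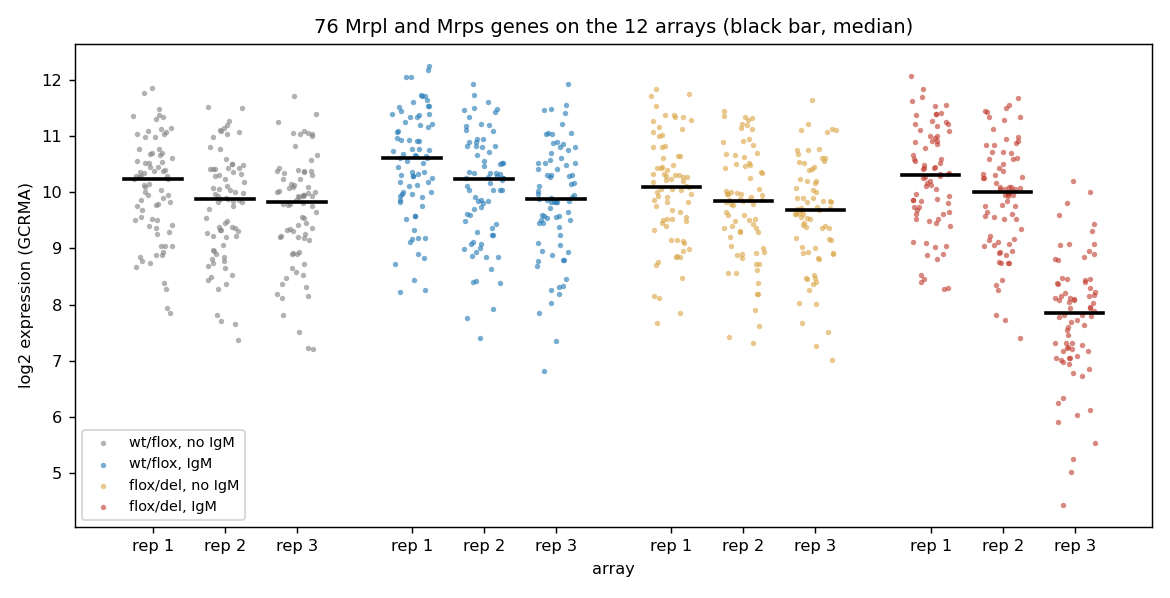
Log2 expression (vertical axis) of the 76 genes on each of the 12 arrays (horizontal axis, by group and replicate number), 1 point per gene, with the median as a black bar. Medians lie between 9.68 and 10.61 except on the third array of flox/del cells with IgM, at 7.85.

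The members are short genes, with a median genomic span of 7690 bases against 22955 for all tested genes. Split by span into 5 equal classes, 39 members lay in the shortest and 23 in the second. On the outlying array all tested genes of the shortest class deviated by a median of -1.29 and those of the longest by 0.81, so short genes read low on it. Members deviated by -2.59, -2.69, -2.27, -2.24 and -2.54 from the shortest to the longest class, without such a gradient, although the last 3 classes held only 8, 3 and 3 of them. Spearman's rho of deviation against span was 0.15 across the 76 members and 0.49 across all tested genes, as descriptions of 1 array across genes. Whether transcript length, RNA quality or labelling set the low values was not tested.

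**Figure D2:**
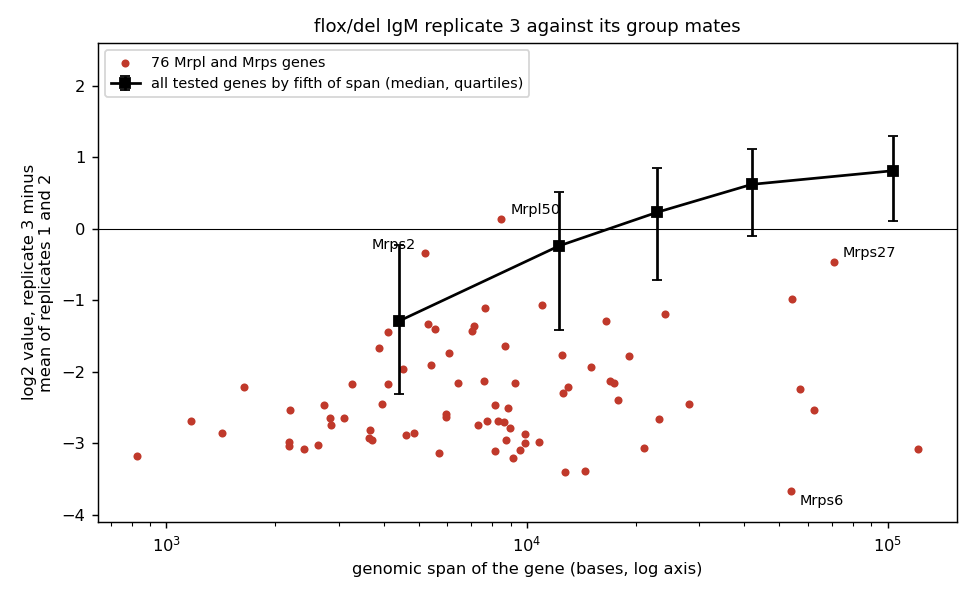
Deviation of the third flox/del IgM array from the mean of the other two of its group (vertical axis, log2) against genomic span in bases (horizontal log axis), for the 76 members (points) and for all tested genes in 5 equal classes of span (squares, median with quartiles). Single members run from -3.66 to 0.13 and their class medians from -2.69 to -2.24, while the medians of all genes go from -1.29 in the shortest class to 0.81 in the longest.

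Promoters of the members are shown here because many members moved together with IgM. RefSeq promoters on GRCm38.p6, 250 bases before to 50 after a start, were matched for 67 of the 76 members, as 73 entries. The ETS motif CCGGAAG, searched on both strands like all motifs here, lay in 34.2% of these entries, in 19.8% of the 9762 promoters of tested genes and in 8.9% of all 32851 promoters. YY1 (AAGATGG) matched 17.8%, 7.7% and 6.3%, and GCGCATG, part of the NRF1 site, matched 11.0%, 7.4% and 3.9%. The E-box CACGTG, bound by Myc, matched 9.6%, 10.6% and 7.2%, and CCAAT matched 39.7%, 38.0% and 37.4%, so neither was more frequent in members than in tested genes by more than 2 percentage points. The end of the ETS motif and the start of the YY1 motif share the letters AAG, so that 1 stretch can match both.

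The 100 bases before the start follow for 7 members that span the range of responses described below, chosen after their values were seen. All 7 have an ETS match in their promoter entry, against 34.2% of member entries, so they do not stand for the members. Mrpl50, Mrps2, Mrps6 and Mrpl12, which are also described below as rising, have no ETS, NRF1 or YY1 match in theirs. Mrps27, Mrps18a, Mrpl3 and Mrpl17 rose with IgM, Mrpl34 and Mrpl43 fell, and Mrpl22 passed in neither genotype. Capitals mark matches to ETS, NRF1 or YY1 on either strand, and each sequence reads 5′ to 3′ on the gene's strand. They lie at chr13:99344686-99344785 on the plus strand (Mrps27), chr17:46110904-46111003 on the plus strand (Mrps18a), chr9:105053168-105053267 on the plus strand (Mrpl3), chr7:105811088-105811187 on the minus strand (Mrpl17), chr8:71464826-71464925 on the plus strand (Mrpl34), chr19:45006443-45006542 on the minus strand (Mrpl43) and chr11:58171564-58171663 on the plus strand (Mrpl22).
Mrps27: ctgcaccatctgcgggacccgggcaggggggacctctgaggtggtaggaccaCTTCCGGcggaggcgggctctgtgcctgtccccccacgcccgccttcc
Mrps18a: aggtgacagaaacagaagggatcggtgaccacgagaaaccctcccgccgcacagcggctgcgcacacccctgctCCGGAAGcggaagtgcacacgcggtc
Mrpl3: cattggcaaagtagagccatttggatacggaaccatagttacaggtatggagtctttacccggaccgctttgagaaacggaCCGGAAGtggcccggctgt
Mrpl17: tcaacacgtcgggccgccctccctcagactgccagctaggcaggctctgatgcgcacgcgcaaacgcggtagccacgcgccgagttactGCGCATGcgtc
Mrpl34: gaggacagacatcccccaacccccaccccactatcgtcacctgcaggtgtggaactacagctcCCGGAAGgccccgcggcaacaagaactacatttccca
Mrpl43: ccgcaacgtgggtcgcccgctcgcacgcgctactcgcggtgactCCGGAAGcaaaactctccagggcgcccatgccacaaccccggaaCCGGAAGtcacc
Mrpl22: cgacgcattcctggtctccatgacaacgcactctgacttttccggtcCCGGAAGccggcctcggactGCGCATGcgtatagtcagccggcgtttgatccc
An ETS match stood in the shown bases of Mrps27, Mrps18a and Mrpl3, of both members that fell and of Mrpl22. Those of Mrpl17 held an NRF1 match, and its ETS match lay elsewhere in its entry. The YY1 matches of Mrps27 and Mrps18a also lay outside the shown bases. Over the 67 members with a promoter, ETS matched 12 of 39 that rose with IgM in wt/flox cells, 4 of 7 that fell and 9 of 21 that did neither, by the calls of the 11-array model with the replicate block described next. YY1 matched 9, 1 and 3 of these, and NRF1 matched 5, 0 and 3. A match is a description of letters and not a bound site.

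The first comparison asked what IgM did to these genes in wt/flox cells. More members were higher than lower with IgM: 61 of 76 had a positive log2 difference, with a median of 0.32, against 46.7% positive and a median of -0.05 over all tested genes. By replicate number 1, 2 and 3 the member median was 0.44, 0.30 and 0.16, with 64, 63 and 50 members higher. In the model of all 12 arrays 3 members rose and none fell at a limma Benjamini-Hochberg adjusted p under 0.05, 3.95% of members, where 20.7% of all tested genes were called. The outlying array lies outside these 6 arrays but widens the spread that all groups share. Without it 17 members rose and 1 fell, 23.7% of members against 36.1% of all genes, with 16.6% rising and 19.5% falling. No label says what the replicate numbers share. They were taken to pair the samples because deviations correlated between groups by number (r from 0.17 to 0.85). With the number as a block 4 rose and none fell on 12 arrays (35.5% of all genes called). Without a test, the arrays with IgM lay wholly above those without it for 24 members, against 21.0% of all genes, and wholly below for 2, against 24.5%. With the block on 11 arrays 44 rose and 9 fell, so that 57.9% of members rose against 29.5% of all genes and 11.8% fell against 33.7%.

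The 3 members that rose in every one of these models were Mrpl50, Mrps2 and Mrps27. Mrpl50, a large subunit protein with no bacterial counterpart, read 8.78, 8.44 and 8.71 without IgM and 9.83, 9.29 and 9.83 with it in wt/flox cells. The groups did not overlap, and the log2 difference was 1.01 ± 0.22 (SE, 3 arrays each, limma adjusted p = 0.0079), a 2.01-fold rise. Mrps2, a core protein of the small subunit, read 9.40, 9.70 and 9.45 without and 10.35, 10.51 and 10.49 with IgM. All stimulated arrays lay above all unstimulated ones, by 0.94 ± 0.20 (SE, limma adjusted p = 0.00847). Mrps27, a pentatricopeptide repeat protein that binds the small subunit's rRNA, read 7.85, 7.71 and 7.21 without and 8.71, 8.39 and 8.30 with IgM. These groups were also separate, by 0.88 ± 0.24 (SE, limma adjusted p = 0.0258). These are the same 3 genes that were not lowest on the outlying array.

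The members were then taken by subunit and origin, to be read against the 29.5% of all genes that rose and 33.7% that fell in the 11-array model with the block. Among small subunit proteins with a bacterial counterpart 10 of 16 rose and 1 fell in that model, and 1 rose on 12 arrays without it. Mrps6, a counterpart of bacterial S6, read 9.05, 8.94 and 8.19 without and 10.31, 10.04 and 9.38 with IgM. Each pair differed by over 1 log2 unit, while the replicates of a group differed by almost as much. Its log2 difference was 1.19, the largest of the 76, with an SE of 0.81 on 12 arrays (limma adjusted p = 0.368), 0.33 on 11 (adjusted p = 0.0186) and 0.08 on 11 with the block (adjusted p = 9.2e-06). Mrps28 read 9.56, 9.38 and 9.30 without and 10.94, 10.46 and 10.31 with IgM, a difference of 1.15 with no overlap (limma adjusted p = 0.278 on 12 arrays and 0.00344 on 11). Mrps10 and Mrps5 differed by 0.87 and 0.69 and rose on 11 arrays (limma adjusted p = 0.00308 and 0.00682). Mrps7 differed by 0.39 and rose with the block on 11 arrays (limma adjusted p = 0.00269), and Mrps12, at the decoding centre, differed by 0.24 and passed in none of the 4 models of wt/flox cells.

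The 3 relatives of bacterial S18 gave different values. Only Mrps18c takes the place of S18 in the ribosome, and the other two are counted here among proteins without a bacterial counterpart. Mrps18b, a small subunit protein, read 10.34, 10.04 and 10.10 without and 11.06, 10.82 and 10.88 with IgM. The groups did not overlap, and the difference of 0.77 passed on 11 arrays (limma adjusted p = 0.00207) and not on 12 (0.213). Mrps18a, which sits in the large subunit despite its symbol, read 10.24, 9.93 and 9.93 without and 11.25, 10.82 and 10.57 with IgM, a difference of 0.84 (limma adjusted p = 0.333 on 12 arrays and 0.0143 on 11). Mrps18c read 10.98, 10.43 and 10.15 without and 11.09, 10.24 and 9.85 with IgM. Its groups overlapped, and its difference of -0.13 passed in none of the models of wt/flox cells. No test of a difference between the paralogs was made.

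**Figure D3:**
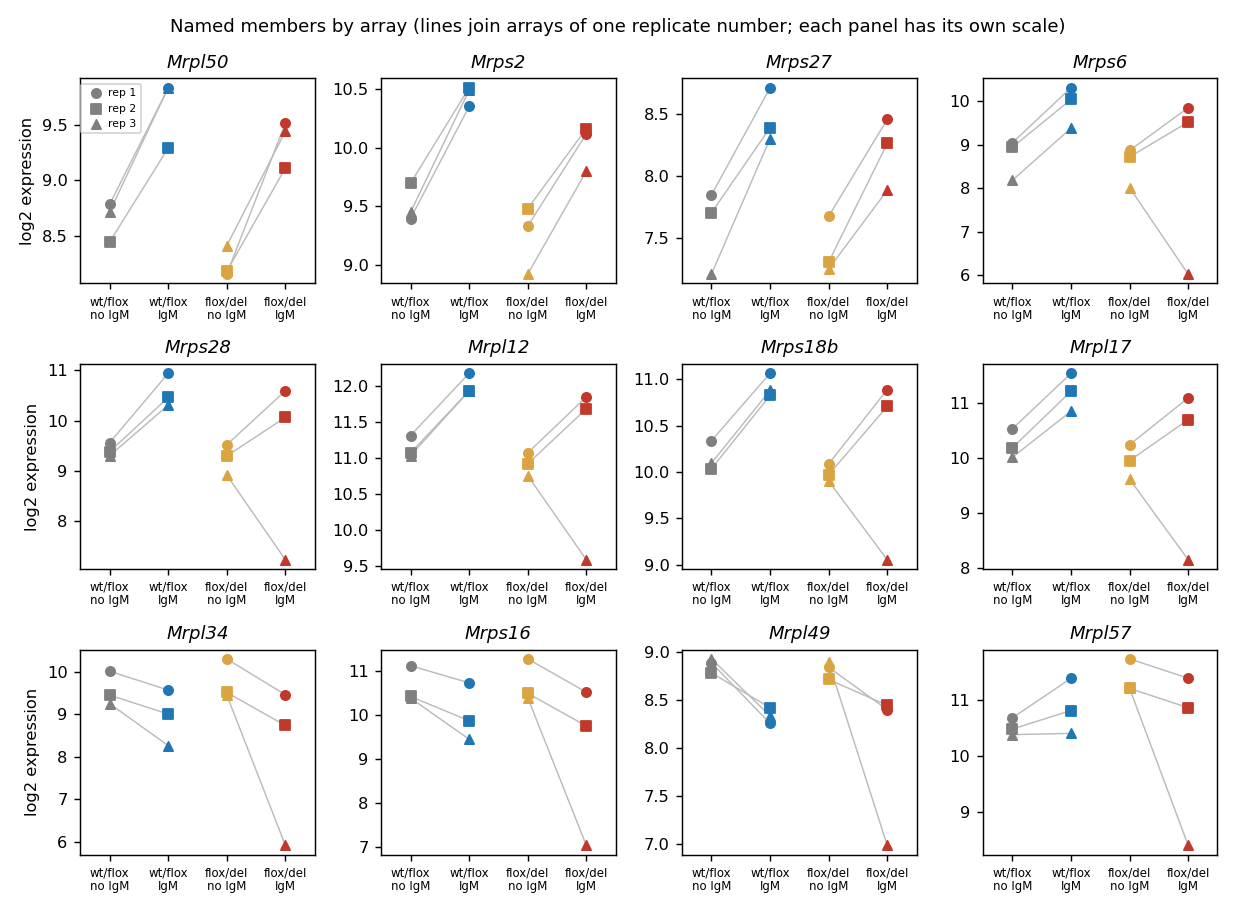
Log2 expression (vertical axis, own scale per panel) of 12 members in the 4 groups (horizontal axis), 1 symbol per replicate number, with lines joining arrays of 1 number. Mrpl50, Mrps2 and Mrps27 go up in every pair, whereas Mrps6, Mrps28, Mrpl12, Mrps18b and Mrpl17 go up in every pair except that of the third flox/del IgM array.

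Of the large subunit proteins listed with a bacterial counterpart, 18 of 29 rose and 4 fell in the 11-array model with the block, with a median of 0.42 over the list, and none passed on 12 arrays without it. That list also holds Mrpl55, for which a bacterial counterpart is not established. Mrpl12, the stalk protein that recruits translation factors and also binds the mitochondrial RNA polymerase, read 11.31, 11.06 and 11.03 without and 12.17, 11.93 and 11.93 with IgM. The groups were separate and each was tight, with a difference of 0.87 (limma adjusted p = 0.243 on 12 arrays and 0.00138 on 11, the smallest among members there). Mrpl17 read 10.53, 10.18 and 10.01 without and 11.54, 11.21 and 10.85 with IgM, a difference of 0.96 without overlap (limma adjusted p = 0.33 on 12 arrays and 0.0113 on 11). Mrpl15, Mrpl21, Mrpl3 and Mrpl19 differed by 0.73, 0.82, 0.57 and 0.49 and rose on 11 arrays, with limma adjusted p from 0.0145 to 0.0322.

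Of 20 measured large subunit proteins without a bacterial counterpart 11 rose and 3 fell in the 11-array model with the block, and Mrpl50 alone passed on 12 arrays. Mrpl38 and Mrpl39 differed by 0.59 and 0.42 and rose on 11 arrays (limma adjusted p = 0.0428 and 0.0485). Mrpl37 and its paralog Mrps30, which also sits in the large subunit, differed by 0.63 and 0.39 and rose with the block on 11 arrays (limma adjusted p = 0.00197 and 0.00448). Mrpl44, which has a ribonuclease III fold, Mrpl41, and Mrpl58, a peptidyl-tRNA hydrolase built into the ribosome, differed by -0.03, 0.15 and -0.11 and passed in none of the 4 models of wt/flox cells. Of the 10 small subunit proteins without a bacterial counterpart 4 rose and 1 fell with the block on 11 arrays, with Mrps22 and Mrps31 (0.46 and 0.26) beside Mrps27 and Mrps18b. Mrps36, now known as a part of the 2-oxoglutarate dehydrogenase complex and so in none of the 4 lists, differed by 0.54 and rose in that model alone (limma adjusted p = 0.00672).

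The members that fell with IgM were fewer and their differences smaller. Mrpl49 read 8.89, 8.78 and 8.93 without and 8.26, 8.42 and 8.33 with IgM in wt/flox cells, with no overlap. Its difference of -0.53 passed on 11 arrays (limma adjusted p = 0.00616) and not on 12 (0.32). Mrpl34 read 10.01, 9.45 and 9.25 without and 9.57, 9.0 and 8.26 with IgM. Here the groups overlapped but each pair was lower with IgM, and the difference of -0.63 passed only with the block on 11 arrays (limma adjusted p = 0.00365). Mrps16 read 11.12, 10.42 and 10.38 without and 10.73, 9.87 and 9.45 with IgM, also overlapping and lower in each pair, with a difference of -0.62 (limma adjusted p = 0.00124 with the block on 11 arrays). Mrpl14, Mrpl4, Mrpl18, Mrps35, Mrpl45 and Mrpl43 fell in that model, with log2 differences of -0.57, -0.44, -0.37, -0.33, -0.33 and -0.32. Mrpl45 is the protein that holds the large subunit at the inner membrane. Of these genes Mrpl34, Mrps16, Mrpl4, Mrpl18, Mrps35 and Mrpl43 were chosen for naming after their values were seen.

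The second comparison was the same stimulus in flox/del cells, and here the outlying array changed most values. On 12 arrays 62 of 76 members had a negative difference, with a median of -0.55 against -0.08 over all genes. Without that array 57 were positive, with a median of 0.27 against -0.06. At limma's adjusted threshold 3 rose and none fell on 12 arrays, where 19.0% of all tested genes were called, and 15 rose and none fell on 11 arrays, where 25.7% were. With the replicate block 3 rose and 3 fell on 12 arrays (36.7% of all genes called), and 30 rose and 9 fell on 11 (53.5%), which is 39.5% and 11.8% of members against 24.3% and 29.2% of all genes. On 11 arrays the groups did not overlap for 30 members with higher and 2 with lower values, against 25.2% and 28.2% of all genes.

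Mrpl50 read 8.15, 8.18 and 8.41 without and 9.51, 9.11 and 9.44 with IgM in flox/del cells, outlying array last. The groups did not overlap, with a difference of 1.11 ± 0.22 (SE, limma adjusted p = 0.00556) on 12 arrays and 1.07 on 11. Mrps2 read 9.33, 9.48 and 8.92 without and 10.12, 10.16 and 9.80 with IgM, a difference of 0.78 ± 0.20 (SE, limma adjusted p = 0.0225) on 12 arrays and 0.89 on 11. Mrps27 read 7.68, 7.31 and 7.25 without and 8.46, 8.27 and 7.89 with IgM, a difference of 0.79 ± 0.24 (SE, limma adjusted p = 0.0441) on 12 arrays and 0.95 on 11. In both genes the third pair was higher with IgM like the other two. With the block on 12 arrays Mrpl34, Mrps16 and Mrpl4 fell, with differences of -1.72, -1.61 and -1.10 (limma adjusted p = 0.027, 0.0328 and 0.0318). On 11 arrays without the block these were -0.66, -0.58 and -0.39 and none of the 3 passed, and with it they passed at -0.88, -0.78 and -0.55.

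Mrps6 showed the reverse dependence. It read 8.87, 8.72 and 8.02 without and 9.85, 9.52 and 6.03 with IgM, so 2 pairs were higher by less than 1 log2 unit and the third was lower. The difference was -0.07 on 12 arrays (limma adjusted p = 0.966), 1.15 on 11 (0.0443) and 0.89 on 11 with the block (0.000106). Mrps28 read 9.52, 9.30 and 8.92 without and 10.59, 10.06 and 7.24 with IgM, and its difference went from 0.05 to 1.08. Mrpl12 read 11.07, 10.91 and 10.75 without and 11.84, 11.68 and 9.59 with IgM, and its difference went from 0.12 to 0.85 (limma adjusted p = 0.879 and 0.00436). Mrpl49 read 8.84, 8.71 and 8.89 without and 8.40, 8.45 and 6.99 with IgM, with no overlap with or without the array, and fell in the model with the block on 11 arrays (-0.37, limma adjusted p = 0.0136). Mrpl58 and Mrps18c also fell in that model of flox/del cells, with differences of -0.29 and -0.43 (limma adjusted p = 0.0347 and 0.0153).

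The responses of both genotypes were set side by side across members, since the 2 contrasts share no arrays. Without the outlying array Pearson's r of the IgM differences was 0.91 across 76 members and 0.88 across all tested genes, as a description across genes, which are not independent replicates. With the array it was 0.83 across members. All 15 members that rose in flox/del cells on 11 arrays also rose in wt/flox cells in that model, 19.7% of members against 11.8% of all genes that rose in both. With the block 30 rose in both (39.5% against 22.3% of all genes), 7 fell in both (9.21% against 25.6%) and none had opposite calls (0.258% of all genes). Counting pairs of arrays with 1 replicate number, 41 members (53.9%) were higher with IgM in all 5 pairs without the outlying array, against 32.0% of all genes, and 10 (13.2%) were lower in all 5, against 38.0%. Those 10 were Mrpl14, Mrpl18, Mrpl34, Mrpl4, Mrpl43, Mrpl45, Mrpl49, Mrpl58, Mrps16 and Mrps35.

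**Figure D4:**
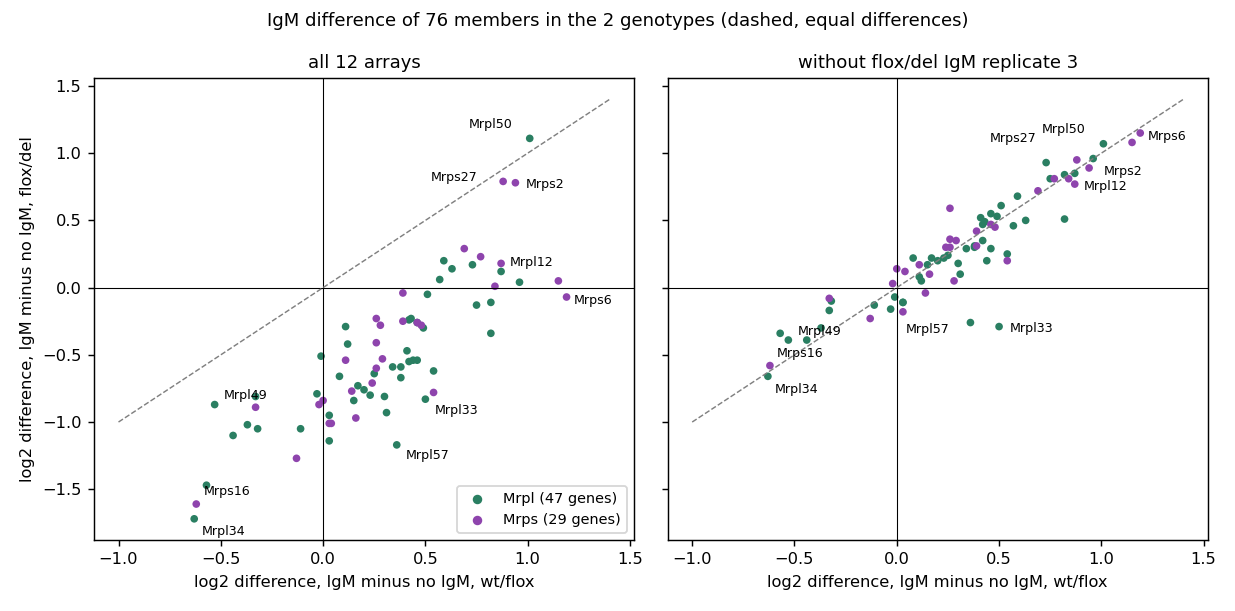
Log2 difference with IgM in flox/del cells (vertical axis) against that in wt/flox cells (horizontal axis) for the 76 members, on all 12 arrays (left) and without the third flox/del IgM array (right); the dashed line marks equal differences. On the left 75 of the 76 lie below the line, on the right 39 below and 37 above it, and Mrpl50, Mrps2 and Mrps27 lie near it in both.

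The test of the difference between the 2 responses, the interaction term in limma, called none of the 76 members in the 12-array model, where 0.108% of all genes were called. Without the outlying array and in both models with the block the count was also 0, with 0.172%, 0.172% and 2.01% of all genes called. At an unadjusted p under 0.05 there were 1, 1, 2 and 5 members. The median member difference between responses was -0.84 on 12 arrays and 0.00 on 11, where members lay between -0.79 and 0.33, with 39 below 0 and 37 above. With the block on 11 arrays it was -0.13, with 64 of 76 members below 0, against 0.03 over all genes. Mrpl33 had the smallest p, with wt/flox values of 9.42, 9.23 and 9.32 without and 10.33, 9.60 and 9.55 with IgM, and flox/del values of 9.83, 9.52 and 9.62 without and 9.52, 9.21 and 7.73 with IgM. It was higher with IgM in the first genotype and lower in the second, with an interaction of -0.79 on 11 arrays (limma adjusted p = 0.898) and of -0.85 with the block (limma adjusted p = 0.0848), which misses the threshold.

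Without IgM the genotypes were compared directly. The median member difference, flox/del minus wt/flox, was -0.05 against 0.00 over all genes. No member passed in limma on 12 arrays, where 2.85% of all genes did, with 0 members at an unadjusted p under 0.05 and a smallest adjusted p of 0.669. On 11 arrays (5.93% of all genes), and with the block on 12 (6.89%), there were also 0, with 1 at an unadjusted p under 0.05 in each. With the block on 11 arrays 1 was higher and 2 lower in the arrays labelled flox/del, 3.95% of members where 21.6% of all genes were called.

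Mrpl57, a small protein of the large subunit, read 10.69, 10.49 and 10.38 in wt/flox and 11.75, 11.22 and 11.22 in flox/del cells without IgM. The genotypes did not overlap, as was the case for 6 members and for 18.9% of all genes, and the difference of 0.88 was the largest of the members in size. Its limma adjusted p was 0.93 on 12 arrays, 0.104 on 11 and 0.00239 on 11 with the block. With IgM it read 11.40, 10.82 and 10.41 in wt/flox and 11.40, 10.87 and 8.39 in flox/del cells, where the first 2 pairs were level. The 2 lower calls were Mrpl17, at -0.31 (limma adjusted p = 0.0242), and Mrpl50, at -0.40 (limma adjusted p = 0.0396).

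With IgM all 76 members were lower in flox/del than in wt/flox cells on 12 arrays, with a median of -0.88 against 0.08 over all genes. In limma none passed, where 1.72% of all genes did, and 2 had an unadjusted p under 0.05. Without the outlying array the median was -0.05, 52 members were negative and 24 positive, and none passed (2.35% of all genes). With the block on 12 arrays none passed either (6.76%), with 17 at an unadjusted p under 0.05. By replicate number, 72, 63 and 76 members were lower in flox/del cells in pairs 1, 2 and 3, with medians of -0.28, -0.14 and -2.33. The share of all genes higher in these pairs was 55.5%, 51.2% and 56.2%. With the block on 11 arrays the median was -0.18, with 67 members negative, and 4 were lower and none higher, 5.26% of members. Of all genes 13.2% were called and 3.43% were lower.

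Those 4 were Mrps6, Mrpl17, Mrps9 and Mrpl12, with log2 differences of -0.49, -0.46, -0.35 and -0.31 (limma adjusted p = 0.0114, 0.014, 0.048 and 0.0497). Mrps9, a counterpart of bacterial S9, read 10.26, 10.35 and 10.29 in wt/flox and 9.94, 9.94 and 8.95 in flox/del cells with IgM. The first 2 pairs alone differed by less than 0.5 log2 units, and the groups did not overlap. Without IgM Mrps9 read 9.95, 9.98 and 10.13 against 9.86, 9.98 and 9.84, and these overlapped. Neutrophil-list levels with IgM ran from 4.34 to 9.76 in flox/del cells, overlapping 3.74 to 6.54 in wt/flox cells. The part of such cells in these 4 calls was not tested.

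Other genes of mitochondrial gene expression and import were taken from lists, and their calls in wt/flox cells with IgM are given on 12 arrays and then on 11 with the block. In those models 20.7% of all tested genes were called, and then 29.5% rose and 33.7% fell. Of 18 import genes 3 and then 15 rose and none fell, with a median of 0.68. Timm9 and Timm8a1, chaperones of the intermembrane space, rose by 1.66 and 1.46 (limma adjusted p = 0.0125 and 0.0385 on 12 arrays), and the matrix chaperonin Hspd1 by 0.87 (0.0214). Of 8 regulators of mitochondrial biogenesis 3 and then 5 rose and none fell, with Myc at 1.90, Ppargc1b at 1.53 and Pprc1 at 1.44 (limma adjusted p = 0.00139, 0.0352 and 0.0443). Of 13 genes of mitochondrial DNA maintenance and transcription 4 rose and 1 fell, then 8 and 3, with the topoisomerase Top1mt at 2.09, the protease Lonp1 at 1.26 and Polg2, the accessory subunit of the DNA polymerase, at -1.34 (limma adjusted p = 0.000506, 0.00734 and 0.00481).

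Of 25 genes of mitoribosome assembly and rRNA modification 5 rose and none fell on 12 arrays, then 11 and 2. Rcc1l, Noa1 and Fastkd2, all needed to build the ribosome, rose by 1.17, 1.08 and 0.96 (limma adjusted p = 0.00578, 0.00253 and 0.0108). Of 16 mitochondrial aminoacyl-tRNA synthetases 5 rose and 1 fell, then 8 and 3, with Nars2 and Yars2 at 1.17 and 1.14 (limma adjusted p = 0.00366 and 0.0154). Of 11 translation factors none passed on 12 arrays, then 4 rose and 2 fell, with the recycling factor Mrrf at 0.95, the elongation factor Gfm1 at 0.84 and the membrane insertase Oxa1l at -0.85 (limma adjusted p = 3.48e-05, 0.000773 and 0.000202 with the block on 11). Of 4 mitoribosomal proteins with other symbols none passed on 12 arrays and then 3 rose, Ptcd3, Chchd1 and Gadd45gip1, by 0.75, 0.52 and 0.41. Cytosolic ribosomal proteins, the counterpart outside mitochondria, had a median of -0.07, with none of 41 passing on 12 arrays and then 2 rising and 2 falling. Their median log2 level on the wt/flox arrays was 14.15 to 14.45, where the highest value of any probe set was 15.79. Whether changes read smaller at that level was not tested. No test compared these lists with one another.

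**Figure D5:**
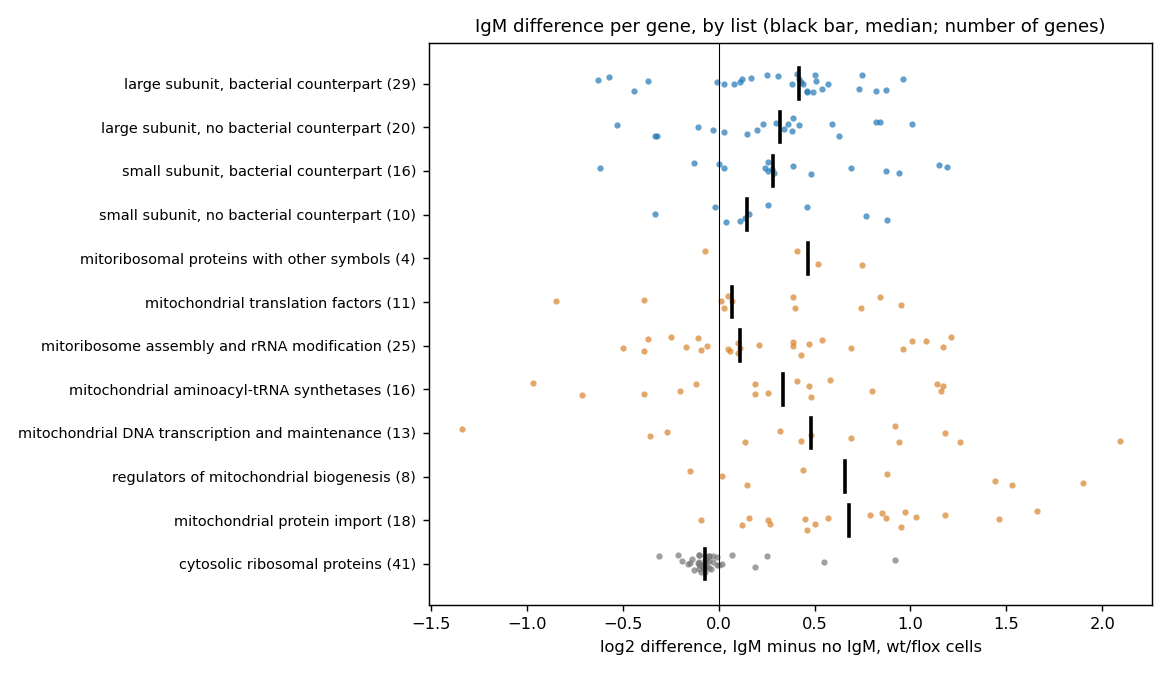
Log2 difference with IgM in wt/flox cells (horizontal axis) for each gene of the 4 mitoribosomal lists (blue), 7 other mitochondrial lists (orange) and cytosolic ribosomal proteins (grey), with the number of genes in parentheses and the median as a black bar. Medians of the 4 mitoribosomal lists run from 0.15 to 0.42, that of import genes is 0.68 and that of cytosolic ribosomal proteins is -0.07.

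Probe sets of 1 gene mostly gave the same direction with IgM in wt/flox cells. Of the 33 members with more than 1 probe set above the filter, 28 had the same sign of the IgM difference in wt/flox cells in all of them. The signs differed for Mrpl28, Mrpl48, Mrpl9, Mrps24 and Mrps25, for which the probe sets used differed by 0.12 or less. Agreement was not counted for the other comparisons. In flox/del cells without the outlying array, Mrpl57 differed with IgM by -0.26 in the probe set used. Its other probe set, with a mean log2 level of 5.68, differed by 0.71.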

How the data were processed

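The values the authors deposited are log2 expression, and the submitters' processing notes name GCRMA. The array type's probe annotation supplied gene names. No other step is given in the sources used here. Array precision is limited by their number, 12. From these values a gene was tested if any of its probe sets exceeded 4 on at least 3 arrays. Among those passing, the probe set with the highest mean stood for the gene. Linear models with 1 mean per group over all 12 arrays were fitted with limma 3.58.1 (lmFit, contrasts.fit, eBayes; R 4.3.3), two-sided, with Benjamini-Hochberg adjustment over 9293 genes and a threshold of 0.05. The code was tested on simulated data.

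Deviations from group means of arrays with the same replicate number correlated between groups (r from 0.17 to 0.85, every pair over 0.1), so the numbers were taken to pair samples; the pairing comes from the data, since no label says what a number shares. The block is that number as a fixed effect.

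Named members are the up to 6 largest rises and falls among those that passed with groups not overlapping, or otherwise the 3 with the smallest p, the 3 highest and lowest by mean, and 12 fixed for their roles; of other lists, the up to 3 with the smallest p. Members named beyond it were chosen after their values were seen. Applying this rule to the 11-array fit as well was added after the data were seen. Members, lists and tests were chosen with earlier results of these data known. Alternatives were other filters, scalings, probe set summaries, variance settings, array weights, a correction for genomic span, the block and left-out arrays. Sequences are RefSeq's, GRCm38.p6.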

Additional observations from a re-analysis of the deposited data

How the results depend on the processing

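Counts of members past the threshold depended most on the third flox/del IgM array and on the block. Shares in parentheses are those of all tested genes called in the same setting. For IgM in wt/flox cells, 3 on 12 arrays (20.7%), the count was 5 with the span correction (25.1%), 5 with the mean of probe sets (22.7%), 19 with array weights (42.0%) and 14 on the arrays compared alone (29.5%). Leaving out an array or a replicate number gave 0 to 18: 18 without the third flox/del IgM array (36.1%), 15 without replicate number 3 (28.7%) and 0 without number 1 or 2 (5.85% and 3.12%). For flox/del cells, also 3 (19.0%), it was 15 with array weights (36.9%), 0 on the arrays compared alone (5.81%) and 0 to 15 with arrays left out: 15 without the third flox/del IgM array (25.7%), 9 without number 3 (24.1%), 0 without number 1 or 2 (4.18% and 2.04%), and 1 without flox/del IgM array 2 (15.9%) or unstimulated flox/del array 1 or 3 (11.0% and 12.7%). With pairing by the replicate block the counts were 4 and 6 (35.5% and 36.7%), and with the block and without the third flox/del IgM array 53 and 39 (63.2% and 53.5%), with 3 and 4 for genotype without and with IgM (21.6% and 13.2%).

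The median member difference between genotypes with IgM, -0.88, was -0.12 with array weights and -1.38 to -0.05 with arrays left out. The flox/del IgM median of -0.55 ran from -1.09 to 0.27 with arrays left out, and the interaction's of -0.84 from -1.33 to 0.00, with -0.11 under array weights and -0.13 with the block and without the array. The lowest values came without flox/del IgM array 1 and the highest without array 3. Median centring and quantile normalization changed no count of members that passed in either IgM comparison. In flox/del cells the IgM difference of 43 members had the other sign without the third array, of 39 with array weights and of 39 with the block and without the array. Of these 3, 2 and 16 passed the threshold in that setting. Among the members named by rule, those that turned and passed were Mrps6, from -0.07 to 0.93 with array weights, 1.15 without the third array and 0.89 without number 3 or with the block and without the array, and in this last setting Mrps11, Mrps14 and Mrps30, at 0.40, 0.24 and 0.30. With arrays left out Mrps6 ranged from -0.76 to 1.15. Each of these settings left out or down-weighted the third array, but none of the others changed only that. Array weights also changed the weight of the other arrays, and leaving out number 3 dropped that number from every group. On 11 arrays without the block Mrps11, Mrps14 and Mrps30 did not pass (limma adjusted p = 0.252, 0.539 and 0.226). The parts of the array, the block and the weights were not told apart, and no cause was tested.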
